A study of Mus musculus with 19 samples.

Results

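DNA methylation of cystic embryoid bodies (EBs) was set against that of fetal liver in 10 kb windows of the mouse genome. A window was covered when each of the 4 libraries, 2 of cystic EBs and 2 of liver, held at least 20 reads over CpG calls in it. It was called higher when cystic EBs exceeded liver by more than 20 percentage points in both of 2 crosses, and lower when they fell below it by more than 20 points in both. Of 221966 windows with a call in any bisulfite library, 126448 were covered. Of the covered windows 3857 were higher (3.05%) and 261 were lower (0.206%). Of the higher windows 45.9% overlapped a protein-coding gene, against 55.7% of all covered windows, and a small number of them lay over developmental regulators such as Pax3, Pax6, En1, Zic1, Six3, Tbx5, Gata4 and Foxa1. The lower windows were fewer, and 105 of the 261 held the start of a protein-coding gene (40.2%, against 7.32% of all covered windows).

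In mammals most cytosines of CpG dinucleotides are methylated, and the exceptions are mainly CpG-rich promoters and active enhancers. Developmental regulators lie in broad CpG-rich domains that are kept free of methylation by default, often under Polycomb proteins. DNMT1 copies the pattern at replication, while DNMT3A and DNMT3B, helped by DNMT3L in germ and embryonic stem (ES) cells, lay it down anew.

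Cystic EBs are fluid-filled aggregates of differentiating ES cells. They were grown for 15 days from CF clone C2 of the Cast x FVB cross (CxF) and FC clone A2 of the FVB x Cast cross (FxC), the maternal strain being written on the left, and each cross was represented by 1 XY clone. Liver and visceral yolk sac endoderm (ysE) were taken at E12.5 from litters of the same crosses, and each library held a whole pooled litter. Expression came from other material, namely cystic EBs at day 10 and day 15 of 2 C57Bl/6x129 clones (A9, XY, replicate A, and JN, XX, replicate B) and E12.5 FVB liver in 2 libraries. The liver and A9 libraries came from the ScriptSeq kit and the JN libraries did not. Clone, sex and library kit thus cannot be told apart. Strain also differed between cystic EBs and liver in the expression comparison, so strain and tissue cannot be told apart there. The cystic EB libraries of both clones and both days were entered as replicates. H3K4me3, a histone mark of promoters, came from 1 library of E12.5 FVB visceral yolk sac (VYS).

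The windows hold promoters of different make-up, and 4 are shown because they lay in windows of opposite direction and held from 20 to 58 CpGs. The sequences are RefSeq promoters on GRCm38.p6, 250 bases before to 50 after the start, written 5′ to 3′ on the strand of the gene, with each CpG in capitals. Zic1, a zinc finger regulator of the dorsal neural tube and cerebellum (chr9:91365719-91366018, minus strand, 31 CpGs), and Pou4f1, a POU regulator of sensory neurons (chr14:104467950-104468249, minus strand, 57 CpGs), lay in higher windows. Csnk2a1, a catalytic subunit of casein kinase 2 (chr2:152226590-152226889, plus strand, 20 CpGs), and Wnt9a, a secreted signal (chr11:59306680-59306979, plus strand, 58 CpGs), lay in lower windows.
Zic1: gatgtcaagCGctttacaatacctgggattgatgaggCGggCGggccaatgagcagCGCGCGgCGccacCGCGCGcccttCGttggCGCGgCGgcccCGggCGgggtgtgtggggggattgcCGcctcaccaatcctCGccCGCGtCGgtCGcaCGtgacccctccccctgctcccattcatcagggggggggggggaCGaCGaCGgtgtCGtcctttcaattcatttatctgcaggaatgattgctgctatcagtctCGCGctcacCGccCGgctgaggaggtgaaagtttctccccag
Pou4f1: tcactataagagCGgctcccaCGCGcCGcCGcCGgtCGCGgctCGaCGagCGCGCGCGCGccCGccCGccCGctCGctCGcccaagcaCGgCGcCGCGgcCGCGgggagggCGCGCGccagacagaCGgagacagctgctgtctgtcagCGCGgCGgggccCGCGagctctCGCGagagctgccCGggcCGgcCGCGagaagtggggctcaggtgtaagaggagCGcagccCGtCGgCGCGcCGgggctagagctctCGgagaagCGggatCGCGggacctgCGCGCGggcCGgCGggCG
Csnk2a1: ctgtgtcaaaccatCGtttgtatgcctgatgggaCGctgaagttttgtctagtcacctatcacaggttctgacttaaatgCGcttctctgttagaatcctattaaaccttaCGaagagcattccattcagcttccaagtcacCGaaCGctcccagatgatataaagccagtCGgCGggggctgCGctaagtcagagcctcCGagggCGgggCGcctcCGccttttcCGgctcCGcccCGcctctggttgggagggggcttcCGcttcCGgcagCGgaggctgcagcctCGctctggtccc
Wnt9a: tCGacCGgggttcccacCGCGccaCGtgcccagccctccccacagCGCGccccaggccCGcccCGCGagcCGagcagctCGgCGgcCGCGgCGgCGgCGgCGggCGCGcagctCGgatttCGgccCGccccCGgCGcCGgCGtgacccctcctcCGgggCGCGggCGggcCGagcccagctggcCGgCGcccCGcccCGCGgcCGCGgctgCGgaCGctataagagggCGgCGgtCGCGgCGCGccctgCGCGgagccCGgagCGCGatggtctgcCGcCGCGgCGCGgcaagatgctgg
Only the Pou4f1 and Csnk2a1 stretches were read in both cystic EB libraries. In Pou4f1 3 of 10 reads were methylated in cystic EBs CxF and 1 of 7 in FxC, against 2 of 9 in liver FxC. In Csnk2a1 3 of 10 and 0 of 9 were methylated in cystic EBs, against 6 of 8 in liver CxF. Over 1 kb to either side of the Pou4f1 start the level was 60.9% and 25% in cystic EBs and 0% and 26.9% in liver, on 9 to 46 reads a library. Here the groups overlapped, although the whole 10 kb window differed in both crosses. Among promoters of protein-coding genes in covered windows, those of lower windows held a median of 24 CpGs in 300 bases, those of higher windows 16, and all of them 17. At least 10 CpGs were held by 90.1% of promoters in lower windows, 62.5% in higher windows and 66.4% of all.

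Depth was low and the strands differed in every library. The calls held 8475654 to 11554658 reads per cystic EB and liver library at a median of 1 read a call, and RNA libraries held 47818368 to 110465060 counts. Calls on the plus strand were 99.2% to 99.5% methylated in all 6 bisulfite libraries, whereas minus-strand calls spanned the whole range. The minus strand gave 81.2% and 75.8% in cystic EBs, 68.4% and 69.8% in liver and 56.8% and 47.0% in ysE (CxF and FxC), against 87.0%, 82.6%, 77.6%, 79.8%, 67.8% and 60.1% over both strands. Plus-strand calls near 100% in every library leave no room for a difference between tissues. Of plus-strand calls 0.262% to 0.502% were at 0% methylation, against 14.3% to 47.7% of minus-strand calls, so the strands of each library disagreed. The reason was not tested, and plus-strand levels should not be read as methylation of the tissues. The levels over both strands rest on them in part and lie nearer to 100% than minus-strand levels. They also depend on the share of plus-strand reads in each library. For this reason minus-strand values are given beside the main results. The plus strand held 28.2% to 33.6% of the reads of a cystic EB or liver library on the median chromosome, but 65.7% in liver CxF on chromosome 6 and 43.7% in cystic EBs FxC on chromosome 12. Chromosome 6 held 10 of the 3857 higher and 19 of the 261 lower windows, 0.316% and 0.601% of its covered windows. In liver CxF the plus strand also held 34.8% of reads on chromosome 2 and 35.4% on chromosome 7. Lower windows made up 0.363% and 0.429% of covered windows there, against 0.206% over all. On chromosome 10 the plus strand held 38.6% of reads in liver FxC, and 0.200% of windows were lower. The relation was not tested. Chromosome 12 held 232 higher windows, 4.60% of its covered windows and the highest share of any chromosome, and 0 lower ones. On the minus strand its share of higher windows was 5.65%, against 7.38% over all chromosomes. Windows were covered on 16 chromosomes, and chromosomes 13, 15, 19, X and Y were not analysed.

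Cystic EBs were more methylated than liver in 77.7% of covered windows in CxF and 61.0% in FxC. The median difference was 9.08 points in CxF and 3.48 points in FxC, and 49.2% of covered windows lay above 0 in both crosses while 10.3% lay below 0 in both. The cystic EB libraries differed from each other by a median of 7.46 points a window and the liver libraries by 8.31 points, as an absolute difference. The signed median between the libraries of a tissue (CxF minus FxC) was 3.54 points in cystic EBs and -1.86 points in liver, beside the 3.48 points between the tissues in FxC. On the minus strand the median difference between the tissues was 12.2 points in CxF and 6.19 points in FxC. In a single cross 25453 windows (CxF) and 13257 windows (FxC) were past 20 points on the higher side. On the lower side they numbered 1794 and 6184. Taken relative to the median difference of each cross, 1243 windows were higher and 1032 were lower, so the share of higher calls moved from 93.7% to 54.6%. Counted on the minus strand alone, which holds most of the same reads, 6042 of 81892 covered windows were higher (7.38%) and 239 were lower (0.292%). Over both strands these shares were 3.05% and 0.206%.

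**Figure D1:**
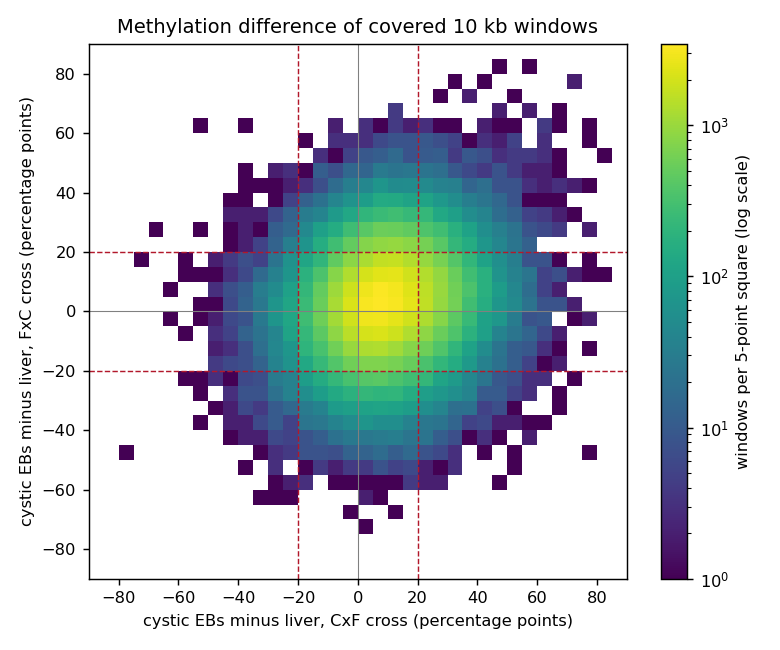
Each square counts covered 10 kb windows by the methylation difference of cystic EBs and liver in percentage points, CxF cross on the x axis and FxC cross on the y axis, with colour on a log scale. Dashed lines mark 20 points, beyond which 3857 windows lie at the upper right and 261 at the lower left, and the cloud is centred at 9.08 and 3.48 points.

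The higher windows stood above the median of all covered windows in cystic EBs and below it in liver. Their median was 91.2% and 90.6% in cystic EBs (CxF and FxC), 62.0% and 62.5% in liver. Over all covered windows the medians were 88.7% and 84.6% in cystic EBs, 78.7% and 80.8% in liver. The lower windows had medians of 57.8% and 53.8% in cystic EBs and 86.8% and 84.5% in liver. These levels follow from how the windows were chosen and are a description. Just inside the threshold lay a window over the histone deacetylase gene Hdac9 (higher by 20.01 points in FxC, 24.4 in CxF) and 1 over the kinase subunit gene Pik3r4, where the difference was -20.04 points in FxC and -24.8 in CxF. Just outside lay windows over the sulfotransferase gene Hs3st5 (20 points in FxC) and over Fbxl19 (-20 points in CxF).

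The ysE libraries took no part in the choice. Each ysE median is over the windows with at least 20 reads in that library. These were 2844 (CxF) and 2719 (FxC) of the 3857 higher windows and 245 and 233 of the 261 lower ones. Of the 126448 covered windows they were 108975 and 104936. In higher windows ysE was at 59.4% (CxF) and 51.1% (FxC), and over all covered windows at 70.5% and 63.6%. In lower windows it was at 68.8% and 63.0%. The mean of the medians was 55.2% ± 5.84 in higher windows, 65.9% ± 4.09 in lower windows and 67.1% ± 4.85 over all (SD, n = 2). In each of the libraries ysE was thus lower in the higher windows than over all windows, among those with 20 ysE reads. On the minus strand it was at 47.7% and 38.1% in higher, 56.7% and 47.4% in lower and 60% and 51.4% in all windows. With 2 libraries against 2 an exact permutation test cannot go below p = 0.333. Leaving out chromosomes 3 and 4, where the plus strand held only 17.98% (FxC) and 10.3% (CxF) of the ysE reads, the means were 56.9%, 66.5% and 68.2%.

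**Figure D2:**
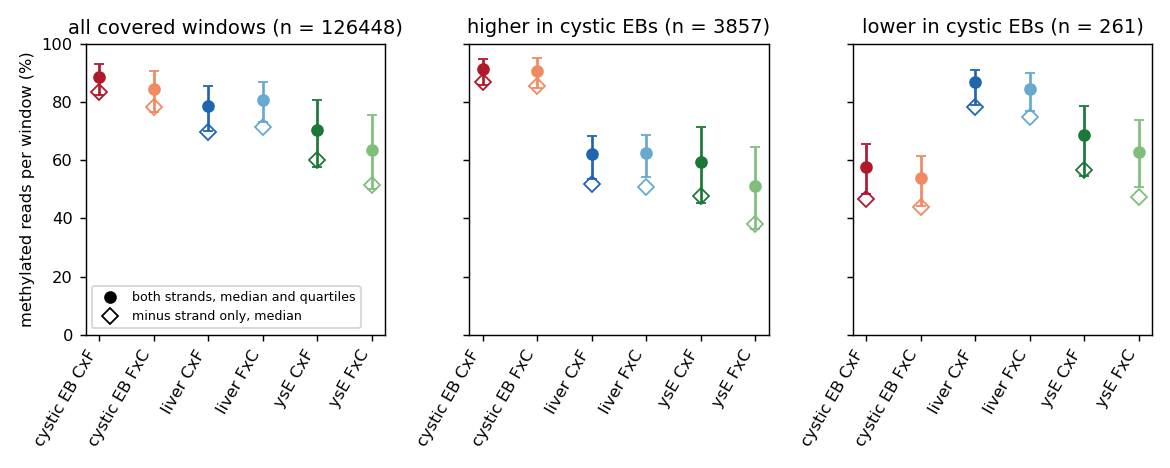
Median methylation per library in percent of reads, for all covered windows and for the windows higher or lower in cystic EBs. The ysE medians are over those of the windows with at least 20 reads in that ysE library. Filled circles with bars give the median and quartiles over both strands, open diamonds the median on the minus strand. Liver falls to 62.0% and 62.5% in higher windows, with the ysE libraries at 59.4% and 51.1%, and cystic EBs are the lowest in lower windows, at 57.8% and 53.8%.

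A limma fit of all 126448 windows on the log2 ratio of methylated to unmethylated reads tested the comparison. Each weight was the reads times the methylated and the unmethylated fraction of the window, as means over the 4 libraries. At an FDR of 5% (Benjamini-Hochberg), 53 windows were higher (0.0419%) and 2 were lower (0.00158%). At an unadjusted p under 0.05 the counts were 17457 and 1245, and with each library centred on its median 5342 and 6752. The count moved with the libraries and settings. Without liver CxF 1 window was higher and none lower, without liver FxC none in either direction (0 and 0), and without cystic EBs FxC 3760 and 52. Without weights it fell to 0 and 0, with each library centred on its median it was 11 and 8, and with a prior of 0.5 reads 8 and 2. With the cross as a replicate block it was 464 and 23. All 55 windows called were among the higher and lower windows above. Of the 53 windows, 12 lay over a listed neural, mesodermal, hepatic or Hox gene, lists that cover 59, 121, 81 and 20 of the 126448 windows. An H3K4me3 peak of VYS lay in 24 of the 53, and in 10.965% of all covered windows.

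Zic1 had both of its covered windows higher. The window 3′ of its start (chr9:91350001-91360000) was methylated at 91.3% and 82.5% in cystic EBs (CxF and FxC), 15.7% and 27.0% in liver and 52.2% and 44.1% in ysE, on 34 to 92 reads a library. The cystic EB libraries lay far above the liver libraries, with ysE between them (adjusted p = 0.00986 in limma). On the minus strand the values were 89.3%, 75.9%, 4.44%, 18.2%, 42.9% and 32.1%, in the same order. The neighbouring window with the Zic1 start itself stood at 54.9% and 65.5% in cystic EBs and 11.1% and 24.7% in liver. Over 1 kb to either side of the start the groups overlapped on few reads. Cystic EBs stood there at 0% (14 reads) and 100% (4 reads), and liver at 20% (10 reads) and 16.7% (30 reads). A run of 3 adjacent higher windows (chr9:91380001-91410000) began over Zic4, the neighbour of Zic1.

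Tbx5, a T-box factor of heart and forelimb, carried 3 higher windows of 10 covered. The strongest (chr5:119800001-119810000) was at 90.8% and 78.7% in cystic EBs, 10.6% and 24.6% in liver, and 65.6% and 51.6% in ysE (adjusted p = 0.00426 in limma). Pax3, a regulator of the dorsal neural tube and of muscle progenitors, carried 4 higher windows of 10. One of these (chr1:78190001-78200000) was at 71.6% and 72.2% in cystic EBs and 17.5% and 14.7% in liver, with 62.9% and 49.3% in ysE (adjusted p = 0.0208 in limma). In the windows past the limma threshold given here for Zic1, Tbx5 and Pax3 the liver libraries were the lowest.

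Foxa1, a forkhead factor that opens chromatin of endoderm and liver genes, had its start in a higher window (chr12:57540001-57550000). The level was 90.1% and 70.5% in cystic EBs, 14.3% and 7.41% in liver and 71.4% and 64.3% in ysE, so ysE stood near the cystic EBs. On the minus strand cystic EBs FxC fell to 38.1%, liver FxC to 0% and the CxF pair stood at 83.3% and 10.6%; this chromosome carries the excess of plus-strand reads in cystic EBs FxC. The adjusted p over both strands was 0.0208 (limma). Gata4, a zinc finger factor of heart and endoderm, had 3 adjacent higher windows. In the run as a whole (chr14:63240001-63270000) cystic EBs stood at 80.3% and 62.1%, liver at 15.7% and 37.7% and ysE at 54.3% and 55.2%.

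Windows past the limma threshold lay over genes of many kinds, on the lists or on none, or over no gene. Dst, Dlc1, Gem and Tenm3 were among those on no list. Among them, Dlx1, a regulator of forebrain interneurons (chr2:71530001-71540000), was at 66.7% and 79.6% in cystic EBs and 23.3% and 1.41% in liver. Six3, a regulator of forebrain and eye, was at 73.2% and 83.7% against 21.9% and 27.9%. Nkx6-1, a regulator of the ventral neural tube and of pancreatic beta cells, was at 65.7% and 68.3% against 13.5% and 15.7%. Sox2, which acts in pluripotent cells and neural progenitors, was at 50.4% and 53.5% against 7.14% and 10.5%. The window over Hoxb3 and Hoxb4 stood at 85.2% and 78.7% against 6.25% and 34.3%. That over Evx2, a homeobox gene beside the Hoxd cluster, was at 83.3% and 79.8% against 19.6% and 16.7%. In none of the 6 did cystic EBs and liver overlap, in windows chosen for such a difference within each cross. The adjusted p ran from 0.00426 to 0.0482 (limma).

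**Figure D3:**
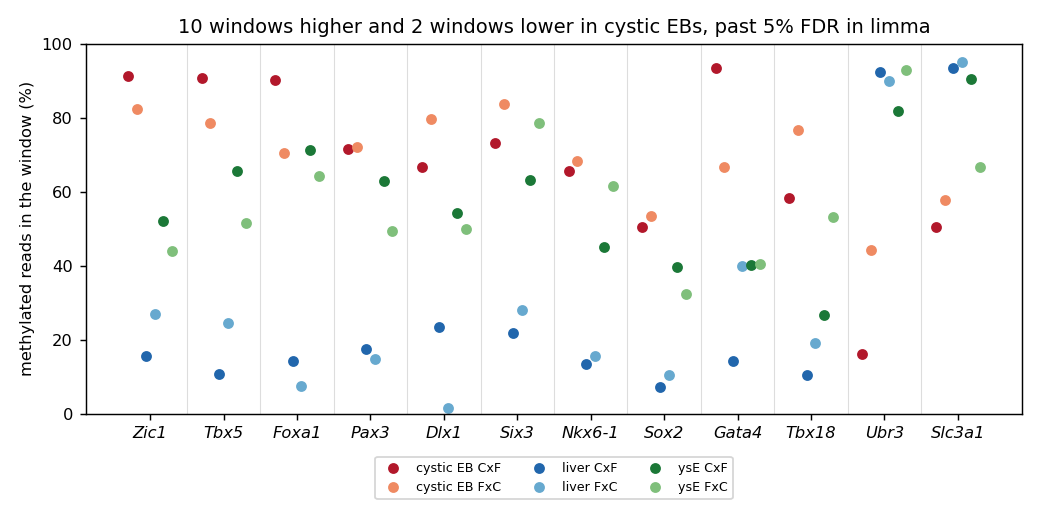
Percent of methylated reads in each of the 6 bisulfite libraries for the windows over 12 genes past the 5% FDR of limma, 1 point a library. Cystic EBs (red, orange) lie above liver (blue) in the windows from Zic1 to Tbx18 and below it in Ubr3 and Slc3a1, while ysE (green) ranges from 26.8% at Tbx18 to 93.0% at Ubr3.

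Neural transcription factors had the highest share of higher windows among the gene lists used. Of 30 listed genes with a covered window 19 lay over a higher window and 0 over a lower one, and 27 of their 59 windows were higher (45.8%, against 2.52% of the 70393 windows over any protein-coding gene). The list was chosen with earlier results of these data known. The median over the 59 windows was 73.2% and 68.3% in cystic EBs, 30% and 42.4% in liver and 51.4% and 49.3% in ysE. On the minus strand it was 64.7% and 53.9%, 20.8% and 23.3%, and 38.8% and 28.5%. Higher windows also lay side by side. Of 16 runs of at least 3 adjacent higher windows, those at Pax3, En1, Pax6, Pou3f2 and En2 overlapped a listed neural regulator in at least 1 window. The longest (chr5:28130001-28180000) spanned 5 windows, of which 2 lay over En2, which patterns midbrain and cerebellum. This block stood at 82.0% and 73.5% in cystic EBs and at 47.8% and 38.6% in liver. The run at Pax6, the regulator of eye and forebrain (chr2:105660001-105690000), was less methylated throughout, at 53.8% and 47.2% in cystic EBs and 6.59% and 12.6% in liver. No run of 3 lower windows occurred.

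Right after the start of the neural regulators the tissues did not separate. In the first kb after the start of 26 neural regulators cystic EBs were at 26.6% and 25.9%, liver at 20% and 33.3% and ysE at 27.4% and 26.4%, so the groups overlapped. In the kb before the start cystic EBs stood at 46.7% and 59.2%, liver at 17.6% and 14.4% and ysE at 37.7% and 29.3%, and here cystic EBs were the highest. Between 3 and 4 kb after the start cystic EBs were at 62.0% and 62.3%, liver at 14.5% and 30.1% and ysE at 54.4% and 46.4%. Between 3 and 2 kb before it they were at 65.7% and 70.9%, 15.9% and 39.8%, and 42.8% and 36.1%. Over all 14717 protein-coding genes the first kb stood at 54.3% and 50.7% in cystic EBs and 45.0% and 49.5% in liver, and at 3 to 4 kb after the start at 84.4% and 79.6% against 77.7% and 80.6%. Starts were thinly read. Of 1305 protein-coding starts with at least 10 reads within 1 kb in each of the 4 libraries, 34 lay in a higher window, and 22 of these were themselves past 20 points higher in both crosses, as were 110 of all 1305, while 58 were past 20 points lower. The median level of the 34 was 77.4% and 72.5% in cystic EBs and 22.3% and 30.2% in liver. These starts share reads with the windows that hold them, so the 22 and these levels follow in part from how windows were chosen.

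**Figure D4:**
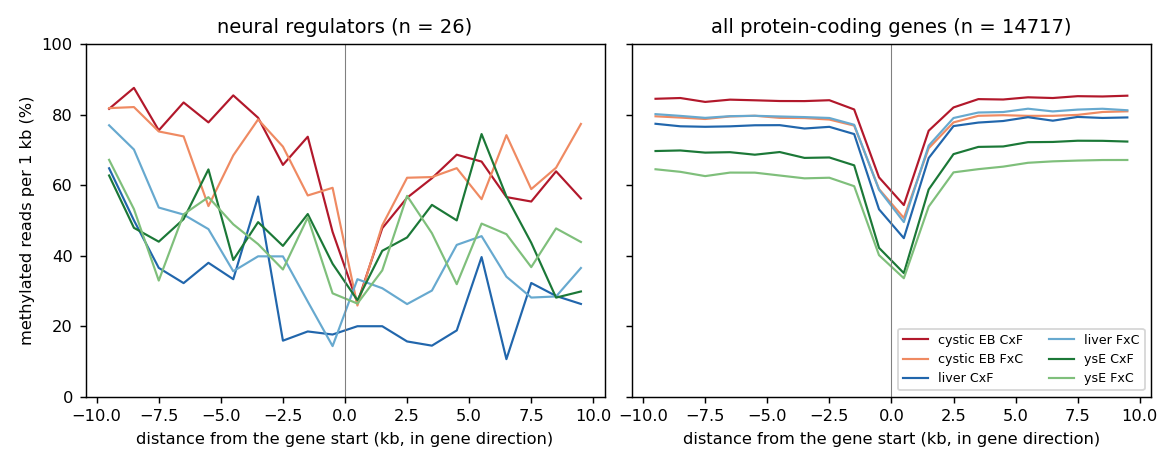
Percent of methylated reads per 1 kb from 10 kb before to 10 kb after the gene start, for 26 neural regulators (left) and all 14717 protein-coding genes (right), 1 line a library. Cystic EBs (red, orange) and liver (blue) meet in the first kb of the neural regulators and part to both sides, while over all genes cystic EBs CxF lie highest and cystic EBs FxC run close to liver FxC.

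Other developmental groups held smaller shares of higher windows. Of all 15377 protein-coding genes with a covered window 1403 lay over a higher one (9.12%), and gene counts below stand beside this share. Of mesoderm and cardiac genes 9 of 33 lay over higher windows (16 of 121 windows, 13.2%). Among them were Tbx5, Gata4, Gata6, Tbx18, the kidney progenitor factor Six2, the mesenchymal factor Tcf21, the smooth and cardiac muscle coactivator Myocd and cardiac troponin Tnnt2. Of the Hox genes, which set position along the body axis, 7 of 19 lay over higher windows (5 of 20 windows, 25%), and the 20 windows had medians of 70.1% and 61.8% in cystic EBs and 36.0% and 33.3% in liver. Of protocadherins, adhesion proteins of neurons whose genes stand in tandem clusters with shared exons, 42 of 65 lay over higher windows. Because clustered genes share windows these came to 20 windows of 246 (8.13%). Of hepatic transcription factors 5 of 19 did so, namely Nr5a2, Foxa1, Gata4, Gata6 and Onecut2 (7 of 81 windows, 8.64%). Gata4 and Gata6 stand on 2 of these lists.

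**Figure D5:**
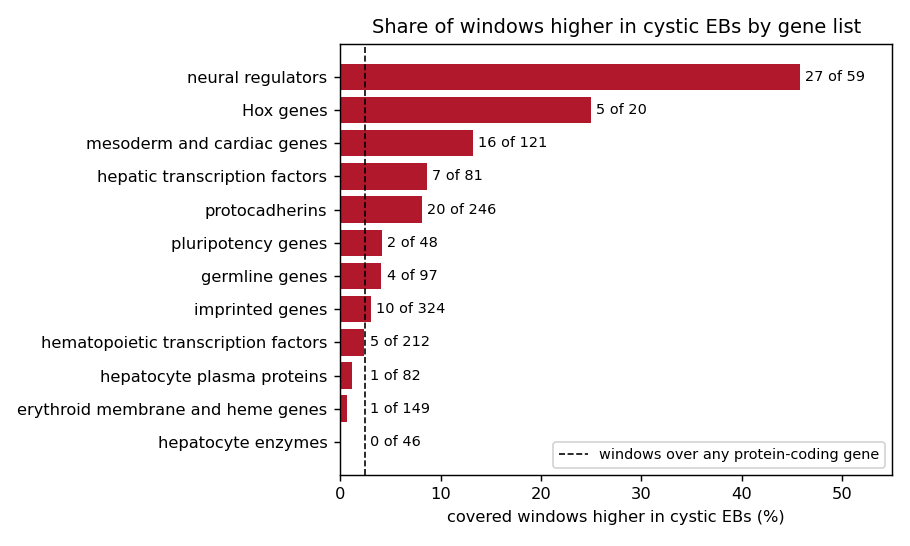
Share of covered windows called higher in cystic EBs, in percent, for windows over the genes of 12 lists, with the counts beside each bar. The dashed line marks the 2.52% of windows over any protein-coding gene; neural regulators reach 45.8% and Hox genes 25%, while the lists of liver and red cell products lie below the line.

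Lists of liver and blood cell genes lay on either side of the 2.52% of windows over any protein-coding gene. The share of higher windows was 8.64% for hepatic transcription factors, 3.70% for myeloid and megakaryocyte genes and 2.36% for hematopoietic transcription factors, and the differences from 2.52% were not tested. Of the windows over any protein-coding gene 0.310% were lower. Of 82 windows over hepatocyte plasma proteins 1 was higher, over the apolipoprotein gene Apoa5, and 2 were lower, over Itih4 and Apoe. Of 46 windows over hepatocyte enzymes 0 differed in either direction. Of 149 windows over erythroid membrane and heme genes 1 was higher and 2 were lower. The membrane skeleton genes Epb41 and Add2 held these, and Epb41 held 1 of each. The Add2 window lies on chromosome 6, where liver CxF had 12 minus-strand reads. In the first kb after the start of 27 of the erythroid genes cystic EBs stood at 56.2% and 62.9% and liver at 27.5% and 28.7%. On the minus strand this was 46.3% and 44.7% in cystic EBs and 21% and 18.1% in liver. The difference was not tested. C3, the central complement protein made by hepatocytes, had 2 higher windows of 3. The window with its start stood at 97.6% and 90.3% in cystic EBs, 73.9% and 69.5% in liver and 89.2% and 79.4% in ysE. Plek and Ncf1, which act in platelets and phagocytes, also had their start in a higher window. At Plek cystic EBs stood at 91.2% and 84.8% and liver at 48.9% and 63.9%.

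Of 324 windows over imprinted genes 10 were higher (3.09%) and 0 lower. The 8 genes were Plagl1, Dcn, Cobl, Smoc1, Meg3, Dio3, Slc22a3 and Ndn. At Ndn, a maternally silenced gene of neurons, the window stood at 87.0% and 88.5% in cystic EBs, 37.7% and 42.9% in liver and 46.7% and 9.09% in ysE, on 15 to 53 reads a library. At the start of Meg3, a maternally expressed non-coding RNA, it stood at 89.0% and 96.3% in cystic EBs and 52.8% and 71.1% in liver. Meg3, Dio3 and Smoc1 lie on chromosome 12, which carries the excess of plus-strand reads in cystic EBs FxC. Of 97 windows over germline genes 4 were higher (4.12%), over Tex14, Dazl, Tex15 and Piwil4. At Dazl, an RNA-binding protein of germ cells, cystic EBs stood at 90.1% and 82.5%, liver at 61.1% and 62.0% and ysE at 93.5% and 82.7%. Of 21 pluripotency genes 2 lay over a higher window (9.52%, against 9.12% of all protein-coding genes), Esrrb and Sox2, and 1 over a lower one, Zfp42.

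Cdkn2a, which encodes the cell cycle inhibitors p16 and p19Arf, is not on these lists and had both of its covered windows higher. The window with its start stood at 67.3% and 79.3% in cystic EBs, 42.9% and 38.1% in liver and 47.9% and 85.3% in ysE. The other was at 62.0% and 82.5% in cystic EBs and 18.6% and 30.8% in liver. Osr1, a regulator of kidney and limb mesoderm, had the largest difference of any window over a gene by the smaller of the crosses. It was at 77.3% (75 reads) and 100% (22 reads) in cystic EBs and at 4.17% (24 reads) and 25% (40 reads) in liver. Only 4 of the 22 reads of cystic EBs FxC there were on the minus strand.

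A start of a protein-coding gene lay in 40.2% of the lower windows, against 8.24% of higher and 7.32% of all covered windows. An H3K4me3 peak of VYS lay in 57.5%, against 11.6% and 10.965%. A protein-coding gene overlapped 83.5% of lower, 45.9% of higher and 55.7% of all windows. In the windows outside any gene, 32 lower, 1519 higher and 40548 of all, SINE repeats took up a median of 16.2%, 4.68% and 5.43%, and LINE repeats 9.51%, 14.8% and 12.54%. The median coverage was 49 reads in lower, 42.75 in higher and 52.75 in all windows. Of the 261 lower windows 158 held 20 minus-strand reads in each cystic EB and liver library. On that strand 116 of these were also past 20 points in both crosses (73.4%). For higher windows this was 1990 of 2085 (95.4%). The minus-strand reads are part of those that chose the windows. Windows of both kinds stood mostly alone. Where the next window was covered, it was also lower for 1.49% of 202 lower windows, against 0.206% of all windows, and also higher for 6.68% of 2575 higher windows, against 3.05% of all.

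The strongest lower window lay within Ubr3, which encodes a ubiquitin ligase (chr2:69940001-69950000). It was at 16.1% and 44.2% in cystic EBs on 137 and 156 reads, 92.4% and 90% in liver on 119 and 80 reads, and 81.8% and 93.0% in ysE. Here the cystic EBs stood apart from both tissues (adjusted p = 0.00426 in limma). On the minus strand the levels were 8.73% and 24.6% in cystic EBs, 87.2% and 86.7% in liver and 71.4% and 75% in ysE. The other past the limma threshold spanned Slc3a1, an amino acid transporter subunit, and Prepl, a serine peptidase (chr17:85060001-85070000). It was at 50.6% and 57.7% in cystic EBs, 93.6% and 95.1% in liver and 90.4% and 66.7% in ysE (adjusted p = 0.00426 in limma).

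Lower windows with a gene start included Keap1, the sensor of oxidative stress that holds NRF2 in check, with both of its covered windows lower. The window with its start was at 50% and 51.3% in cystic EBs, 89.3% and 86.8% in liver and 77.1% and 60.8% in ysE. The Csnk2a1 window shown above was at 37.8% and 36.8% in cystic EBs, 75.6% and 81.8% in liver and 48.1% and 45.0% in ysE, so ysE stood nearer to the cystic EBs. On the minus strand it was at 28.1% and 27.3%, 50% and 66.7%, and 31.7% and 31.25%. There the CxF difference was -21.9 points, against -37.8 over both strands, and liver CxF held 20 of its 41 reads. The Wnt9a window was at 37.5% and 29.8%, 66.7% and 73.8%, and 38.7% and 72.4%, the ysE libraries being apart. Zfp42, the pluripotency factor REX1, was at 63.2% and 46.4% in cystic EBs, 84.3% and 74.7% in liver and 58.5% and 58.7% in ysE. The list named DNA methylation machinery also holds histone modifiers. Of its 87 windows 3 were lower (3.45%) and 1 was higher (1.15%). Over any protein-coding gene these shares were 0.310% and 2.52%, and the difference was not tested. The H3K9 methyltransferase genes Ehmt1 and Setdb1 held a lower window each, and Eed, a Polycomb subunit, held 1 lower and 1 higher window side by side. In the higher one, which holds its start, cystic EBs stood at 73.1% and 92.3% and liver at 16.7% and 47.8%. Of 16 starts in a lower window with 10 reads a library, 5 were past 20 points in both crosses. The median level of the 16 was 10.6% and 17.8% in cystic EBs and 41.5% and 49.2% in liver. These starts share reads with their windows, so the values follow in part from how the windows were chosen.

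Expression was compared between the 4 cystic EB libraries and the 2 liver libraries with edgeR over 24858 transcripts. The fit also held the ysE libraries of E9.25 and E12.5 and the VYS mesoderm libraries of E9.25. At an FDR of 5%, 6112 transcripts were higher in cystic EBs (24.6%) and 5185 lower (20.9%). With cystic EBs and liver alone in the fit 4529 of 23018 were higher and 4136 lower. In bulk samples fewer cells of a type and less RNA per cell cannot be told apart. The labelled tissues carried their markers. Summed hepatocyte markers reached 1308 to 2750 CPM in liver and 82.7 to 554 CPM in cystic EBs, and erythroid markers 2536 to 5053 CPM and 0.708 to 5.85 CPM. Summed pluripotency markers stood at 90.8 to 205 CPM in cystic EBs and at 0.142 CPM or less in liver, and cardiac markers ranged from 7.95 to 203 CPM in cystic EBs, overlapping liver at 21.1 and 6.54 CPM. Summed visceral endoderm markers reached 197 to 1769 CPM in cystic EBs and 3769 and 6492 CPM in liver. Afp made up most of the liver sum, whereas Cubn had 112 to 432 CPM in cystic EBs and 6.36 and 7.83 CPM in liver. All listed markers of these groups were detected except for 1 of 6 erythroid ones. Their part in the methylation differences was not tested. Albumin (Alb) fell in cystic EBs (log2 change -11.68 ± 1.58 SE, adjusted p = 0.00043 in edgeR), as did Afp, the fetal albumin relative (-3.30 ± 1.07, adjusted p = 0.030 in edgeR), though Afp did not pass when either liver library was left out, while the carrier protein Ttr did not pass the test (0.70 ± 0.68).

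Of 1290 tested genes over higher windows, 345 were higher in cystic EBs (26.7%) and 222 lower (17.2%), with a median log2 change of 0.43. Over all 14556 tested genes with a covered window these were 25%, 20.3% and 0.21. The median of 0.43 moved to 0.81 without liver replicate A and to 0.24 without liver replicate B. Of 277 genes over lower windows 67 were higher (24.2%) and 58 lower (20.9%), with a median of 0.10. Where the start itself lay in a higher window 90 of 317 genes were higher (28.4%) and 56 lower (17.7%). Where it lay in a lower window 29 of 121 were higher (24.0%) and 21 lower (17.4%).

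Of the 19 neural regulators over higher windows 15 had more transcript in cystic EBs and 0 less at the 5% FDR of edgeR, and of the 30 tested 23 had more and 0 less. Of all genes tested over covered windows 25% were higher and 20.3% lower. Pax6 had 2.75, 2.22, 2.55 and 4.69 CPM in cystic EBs (d10 A and B, d15 A and B) and 0.114 and 0.0824 CPM in liver (log2 change 4.93 ± 0.60 SE, adjusted p = 0.00026 in edgeR). Pax3 had 0.842 to 2.08 CPM in cystic EBs and 0.199 and 0.0659 CPM in liver (3.41 ± 0.74, adjusted p = 0.0049 in edgeR). In neither gene did the groups overlap. Zic1 (3.38 ± 1.08, adjusted p = 0.029 in edgeR) and Pou4f1 (2.298 ± 0.72, adjusted p = 0.027 in edgeR) rose too, but neither passed without liver replicate B. Zic2 was counted 377 to 2958 times in cystic EBs and 0 times in liver, at least 698-fold higher against a floor of 3 counts over the liver group. Olig2, a regulator of oligodendrocytes and motor neurons, was at least 49.6-fold higher by the same measure.

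Liver replicate A held more of some of these transcripts than B, such as Sox2 and Dlx1, whereas En1 was counted 22 times in each. Sox2 had 61.9 to 110 CPM in cystic EBs and 4.44 and 0.0330 CPM in liver A and B (log2 change 5.12 ± 1.25 SE, adjusted p = 0.0090 in edgeR). Dlx1 had 0.0269 to 0.652 CPM in cystic EBs and 1.79 and 0.0330 CPM in liver, so the groups overlapped and it did not pass the test (-2.02 ± 1.35, adjusted p = 0.24 in edgeR). En1 (2.05 ± 0.82), Nkx6-1 (2.79 ± 1.11) and Gsx2 (2.57 ± 1.58) did not pass it either. Summed neural markers stood at 1.69 CPM in liver A and at 0.181 CPM in liver B.

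Regulators of heart and liver moved in different directions. Gata4 and Gata6 rose in cystic EBs, by 2.32 ± 0.43 and 2.10 ± 0.37 on the log2 scale (adjusted p = 0.0022 and 0.0018 in edgeR). Nr5a2 and Onecut2, which act in hepatocytes and bile duct cells, fell by 1.98 ± 0.25 and 3.74 ± 0.31 (adjusted p = 0.00031 and 3.9e-05 in edgeR). Foxa1 had 1.99 to 2.40 CPM in cystic EBs and 1.35 and 1.76 CPM in liver and did not pass the test, although its window differed by 63.0 points or more in both crosses. Tbx5 (-0.80 ± 0.83) and Tbx18 (0.02 ± 0.88) did not pass. Of the mesoderm and cardiac genes over higher windows 3 of 9 were higher and 0 lower, and of the 33 genes of the list that were tested 16 were higher and 0 lower, against the 25% and 20.3% of all genes over covered windows. These differences were not tested.

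Some genes with a higher window at the start fell far. C3 had 0.394 to 3.50 CPM in cystic EBs and 506 and 901 CPM in liver (log2 change -9.10 ± 1.04 SE, adjusted p = 0.00018 in edgeR). Plek (-4.92 ± 0.66) and Ncf1 (-4.83 ± 0.43) fell too, and Ugt2b5, a hepatic glucuronosyltransferase, was counted 0 times in cystic EBs and 46 and 109 times in liver, at least 129-fold lower. Others rose. Cdkn2a was counted 153 to 453 times in cystic EBs and 0 times in liver (at least 159-fold higher), and Dazl rose by 5.64 ± 1.44 on the log2 scale. Dazl had 0.476 and 0.801 CPM in the A9 libraries and 9.31 and 5.96 CPM in those of clone JN, where sex and library kit differed too. It did not pass the test when either liver library was left out. Esrrb, Tex14 and Tex15, whose higher windows did not hold the start, rose by 4.09 to 6.87. Of the imprinted genes over higher windows Ndn (2.02 ± 0.31) and Dio3 (4.56 ± 0.70) rose, and Meg3 (-3.05 ± 0.28), Smoc1 (-0.88 ± 0.24) and Slc22a3 (-2.87 ± 0.41) fell (adjusted p = 0.016 or less in edgeR).

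Genes with the start in a lower window also moved both ways. Wnt9a rose (4.18 ± 0.51), as did Gtsf1l (4.26 ± 0.75), a relative of a germline piRNA factor, and the interferon-induced genes Oas1c (7.46 ± 1.01) and Ifitm1 (4.29 ± 0.76), all with an adjusted p of 0.0018 or less in edgeR. Gtsf1l had only 2 and 4 counts in liver and Oas1c 2 and 0. Csnk2a1 did not pass the test (0.04 ± 0.17), with 129 to 149 CPM in cystic EBs and 143 and 123 CPM in liver. Keap1 fell (-1.13 ± 0.26, adjusted p = 0.0068 in edgeR), but did not pass the test without liver replicate B. Zfp42 rose by 9.44 ± 0.99, and liver held 6 and 0 counts of it. Itih4, a plasma protein of hepatocytes, fell by 8.16 ± 0.63 although its window was less methylated in cystic EBs, at 71.2% and 60.5% against 98.0% and 80.6% in liver.

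The methyltransferases differed as well. Dnmt3b had 56.2 to 175 CPM in cystic EBs and 24.9 and 27.3 CPM in liver (log2 change 2.04 ± 0.43 SE, adjusted p = 0.0046 in edgeR), and Dnmt3l had 10.2 to 52.8 CPM against 0.142 and 0.0165 CPM (8.16 ± 1.198, adjusted p = 0.00066 in edgeR). Dnmt1 fell by 1.52 ± 0.24 and Dnmt3a fell by 1.496 ± 0.19 (adjusted p = 0.00094 and 0.00028 in edgeR). In all 4 the cystic EB libraries lay on 1 side of the liver libraries. Their part in the methylation differences was not tested, and the libraries come from other clones than those of the bisulfite data.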

How the data were processed

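Bisulfite calls came from 6 libraries (cystic EBs, liver and ysE, each in CxF and FxC), RNA counts from 11 libraries and H3K4me3 peaks from 1. The authors aligned bisulfite reads to mm10 with GSNAP, called CpGs with BisSNP, and deposited, for each call on each strand, its percent methylation with the reads behind it. The deposited RNA values were counts per RefSeq transcript from RSeQC, with RPKM values beside them that were not tested. Peaks were called by the authors with MACS 1.4.2, and the deposited score of each peak was not tested, only its position. Exon-part counts were not used here.

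Reads were summed over both strands in 10 kb windows with at least 20 reads in each cystic EB and liver library. Windows were called past 20 points in both crosses, with no test in the call. The comparison was tested over all covered windows with limma 3.58.1 on log2((methylated + 1)/(unmethylated + 1)), with the weights given above. Expression was tested with the quasi-likelihood test of edgeR 4.0.16. Both used a Benjamini-Hochberg FDR of 5%. DESeq2 1.42.0 was an alternative. CPM values were computed from the counts on library sizes scaled by TMM factors, whereas fold bounds used unscaled totals. Values after ± in expression are standard errors of the log2 change. Both scripts were tested on simulated data with 200 changed features. Gene positions and promoters came from RefSeq on GRCm38.p6, the mm10 build, and a gene counted in every window it overlapped. Intervals and floors cover counting error only. The bisulfite samples of a group are the 2 crosses, and nothing says that the RNA replicates of a clone were separate cultures. The p-values thus measure the spread between these samples, and for expression the fit drew on all RNA libraries.

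The cross label paired the bisulfite samples in name only (correlation of deviations -0.000781), and with 2 RNA replicate letters, for which it was 0.17, the same holds. The named genes were those of the largest windows, those overlapped by most windows, those on the lists that overlapped a window, those with the largest expression changes at a start, and 7 markers; other genes named, such as those just at the threshold, in a run or past the limma threshold, were chosen after their values were seen. The windows and lists were chosen with earlier results of these data known. Results for some listed genes are not reported here.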

Additional observations from a re-analysis of the deposited data

Results flagged for a closer look

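In 1100 of the 126448 covered windows cystic EBs were more than 20 points above liver in CxF and more than 20 points below it in FxC. In 133 windows the reverse held. These windows were picked out because the crosses moved in opposite directions. The difference between the crosses was not tested, since each has 1 library of each tissue. They stand beside 3857 windows higher and 261 lower in both crosses. In a single cross 25453 windows were past 20 points higher in CxF and 6184 lower in FxC, and 1794 were lower in CxF and 13257 higher in FxC. Whether the 1100 and 133 exceed what these counts give by chance was not tested.

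Alb stood at 1.77 CPM in day 15 cystic EBs of replicate A, against 0.0179 to 0.1004 CPM in the other 3 cystic EB libraries. It stood out as 1 library far from the rest. Of 55 genes looked at in this way 1 was picked out, and chance alone picks out about 1 in 20. Liver held 944 and 1970 CPM, so the value does not alter the direction given for Alb.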

How the results depend on the processing

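The counts of windows moved with the read minimum, the threshold and the window size. The number of covered windows moved too, so shares of it are given. Against 3857 windows higher and 261 lower (3.05% and 0.206%), a minimum of 10 reads gave 7757 and 438 (4.33% and 0.244%). A minimum of 40 reads gave 603 and 60 (1.43% and 0.142%). A threshold of 10 points gave 20708 and 1960, and of 30 points 569 and 33. Windows of 5 kb gave 2138 and 310 (3.11% and 0.452%), and windows of 20 kb 2249 and 40 (2.32% and 0.0412%). Relative to the median difference of each cross there were 1243 and 1032. Without 1 of the crosses the counts ran from 13257 to 25453 higher and from 1794 to 6184 lower. Minus-strand calls alone, an alternative chosen after seeing the data, gave 6042 higher of 81892 covered (7.38%). In limma, against 53 and 2, a prior of 0.5 gave 8 higher, no weights 0 and 0, and centring on the library median 11 and 8. With 40 reads 16 of 42116 windows were higher (0.038%, against 0.0419% in the main fit). The cross as a replicate block gave 464 and 23, without showing that the label pairs the samples. Leaving out 1 library gave 0 to 3760 higher and 0 to 52 lower. Minus-strand calls gave 125 higher (0.153% of 81892), and 13 and 5 when centred. The ysE level in higher windows moved from 55.2% to 48.8% at 10 reads and 61.0% at 40 reads. It was 63.2% in 5 kb windows, 45.2% in 20 kb windows and 48.0% on the minus strand. In lower windows it moved from 65.9% to 70.5% at 40 reads and 55.5% on the minus strand. The ysE level over all covered windows was not computed at the other read minima. Transcripts higher by edgeR ran from 3345 to 6550 and lower from 3323 to 5505 when 1 library was left out, the fewest without liver replicate B, and the replicate letter as a replicate block gave 5450 and 5066. With ScriptSeq libraries alone, which leave out those of clone JN, lower transcripts outnumbered higher ones (4834 and 4929). The median expression change in higher windows (0.43) was 0.36 with DESeq2 or its size factors, 0.51 with no filter and 0.24 to 0.81 when 1 library was left out. In lower windows (0.10) it was 0.0311 with DESeq2, 0.0340 with its size factors, 0.18 with no filter, -0.0438 with ScriptSeq libraries and -0.0209 with the replicate block, so its sign is not fixed. The cause of these shifts was not tested. Of the values of named windows under the alternatives 104 moved by less than the spread and 30 by more. For named genes 684 values kept the outcome of the test, 23 lost the call and 8 gained it. A change of direction was looked for only where either fit passed the test, and none was found. A median of 1 read a call limits every level, and single promoters could seldom be compared.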

Other observations

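Gene families that had no place above are given as values. Of 418 windows over glutamate and GABA receptor genes, which carry fast signals between neurons, 22 were higher (5.26%) and 0 lower, and 13 of 38 genes lay over a higher window. Of 678 windows over potassium channel genes 29 were higher (4.28%) and 1 was lower. Of 281 windows over olfactory receptor genes 11 were higher (3.91%), and of 1030 over genes with symbols of the KRAB zinc finger family 15 were higher (1.46%) and 8 lower (0.777%). Windows over any protein-coding gene were higher in 2.52% and lower in 0.310%. Of 212 windows over hematopoietic transcription factors 5 were higher, over Erg, Meis1, Runx1 and Sox6, and 1 was lower, over Sox6. Of 54 windows over myeloid and megakaryocyte genes 2 were higher, over Csf3r and Ptprc. Of 71 over endoderm markers 2 were, over Gata6 and Sox7. None of the 3 windows over globin genes was past the threshold.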
